A study of Rattus norvegicus with 22 samples.

Results

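The aminoacyl-tRNA synthetases described here were 10 genes named for the amino acid they load: Aars (alanine), Cars (cysteine), Eprs (glutamate and proline), Gars (glycine), Mars (methionine), Nars (asparagine), Sars (serine), Tars (threonine), Wars (tryptophan) and Yars (tyrosine). They were taken as every probeset of the annotated array matrix whose single gene symbol was one of these names, in any case, or its newer form ending in 1, such as Mars1. The rule used no measured value, but the 10 genes were chosen with earlier results of these data known. The rule found all 10 genes on 22 of the 31042 probesets tested. Cars had 5 probesets, Eprs had 4, Gars, Mars, Nars, Sars and Wars had 2 each, and Aars, Tars and Yars had 1 each. No probeset named one of them beside another gene.

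Expression was measured on Affymetrix rat whole-genome expression arrays, 1 array per tissue sample, in young adult male Fischer rats that all carried a 9 L tumor in the right caudate nucleus. The 4 groups were MRT tumor (n = 6), untreated tumor (n = 5), MRT contralateral brain (n = 6) and untreated contralateral brain (n = 5), and each rat gave 1 tumor and 1 contralateral sample. Synchrotron microbeam radiation therapy (MRT) cuts an X-ray beam of 90 keV median energy into parallel microbeams, and it was given 10 days after implantation. At the depth of the tumor the dose was 400 Gy in the microbeams and 18 Gy in the valleys between them. The beam entered from the right side, on which the tumor lay, and crossed both hemispheres. The methods give no separate dose for contralateral brain, for which the paper aimed at a similar irradiation. Irradiated rats were sampled 6 h later. The methods name 2 experimental sessions without saying which rat belonged to which. Every tumor grew from 1 cultured rat glioma line, 9 L, in a host with its own immune system, and was punched from frozen sections, so a tumor sample can hold host cells. In such bulk samples, fewer cells of a type and less RNA per cell cannot be told apart.

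Aminoacyl-tRNA synthetases attach each amino acid to its transfer RNA and so supply the ribosome with substrate. They fall into a class I, to which Cars, Mars, Wars and Yars belong, and a class II, to which Aars, Gars, Nars, Sars and Tars belong, while Eprs joins an enzyme of each class in a single protein. When amino acids run short or unfolded protein builds up, kinases phosphorylate the initiation factor eIF2, most translation slows, and the transcription factor ATF4 is made. ATF4 pairs with C/EBP proteins on composite DNA elements and is known to turn on genes of amino acid synthesis, of amino acid uptake and of many cytosolic synthetases.

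The promoters of the genes with the lowest adjusted p in tumor and of Mars are shown because the composite element was searched in them. Each is the window from 250 bases before to 50 bases after the start site, from RefSeq on the rat build GRCr8, written 5′ to 3′ along the gene. Capitals mark TGATGNAA, or TTNCATCA where the match is on the other strand. They are at chr1:208225320-208225619 (minus strand) for Cars1, at chr5:146819913-146820212 (plus strand) for Yars1 and at chr7:65023704-65024003 (minus strand) for Mars1.
Cars1: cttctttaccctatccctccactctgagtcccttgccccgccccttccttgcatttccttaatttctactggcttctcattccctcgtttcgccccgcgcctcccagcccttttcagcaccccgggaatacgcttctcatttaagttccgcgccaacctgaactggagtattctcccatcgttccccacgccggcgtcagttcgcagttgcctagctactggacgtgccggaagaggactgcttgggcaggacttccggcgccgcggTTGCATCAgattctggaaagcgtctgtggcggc
Yars1: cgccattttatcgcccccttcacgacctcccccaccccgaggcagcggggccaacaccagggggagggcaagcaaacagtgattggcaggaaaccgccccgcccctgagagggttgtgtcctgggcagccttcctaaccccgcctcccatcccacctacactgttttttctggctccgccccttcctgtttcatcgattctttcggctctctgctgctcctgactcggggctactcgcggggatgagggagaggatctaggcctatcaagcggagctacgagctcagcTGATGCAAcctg
Mars1: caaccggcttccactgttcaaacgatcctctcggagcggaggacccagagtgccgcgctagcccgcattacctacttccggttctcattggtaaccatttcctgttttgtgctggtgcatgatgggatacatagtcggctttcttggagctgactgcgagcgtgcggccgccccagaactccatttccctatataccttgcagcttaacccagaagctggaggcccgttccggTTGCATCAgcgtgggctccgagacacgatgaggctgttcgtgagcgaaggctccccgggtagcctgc

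Of the 10 genes, 9 were matched to a promoter window of the RefSeq table and Gars was not. TGATGNAA, the core of the ATF4 and C/EBP composite element, stood in 6 of the 9 windows (66.7%), against 3.98% of all 33469 windows of the same length. The 6 were Aars, Cars, Mars, Nars, Tars and Yars, and the windows of Eprs, Sars and Wars held no match. All 6 also held the exact form TGATGCAA, a form chosen after the matches were seen, which stood in 0.795% of all windows. The interferon-stimulated response element stood in 0 of the 9 windows, against 3.92% of all windows. The composite core also stood in 1 of 8 windows of the other cytosolic synthetases and in 0 of 16 of the mitochondrial synthetases. A match is a description of these letters and not a binding site.

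The remaining stretches are shown so that the position of the element can be compared between genes. They are chr19:55908344-55908403 (plus strand) for Aars1, chr18:60275763-60275822 (minus strand) for Nars1 and chr2:62114796-62114855 (minus strand) for Tars1.
Aars1: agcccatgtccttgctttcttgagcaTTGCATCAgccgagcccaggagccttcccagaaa
Nars1: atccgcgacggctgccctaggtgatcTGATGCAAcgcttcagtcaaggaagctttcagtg
Tars1: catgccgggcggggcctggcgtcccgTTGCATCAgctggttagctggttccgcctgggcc

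Counting the first transcribed base as 1 and the base before it as -1, the first base of TGATGCAA or its other strand lay at -112 in Aars, at -27 in Tars, at -17 in Mars, at -14 in Nars, at 18 in Cars and at 39 in Yars. Aars had a further match of the looser form at position 10. The element was read on the gene's own strand in Nars and Yars and on the other strand in the other 4 genes.

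The samples matched their tissue labels by markers. All 8 neuron markers were lower in untreated tumor than in untreated contralateral brain and all 6 proliferation markers were higher (median log2 difference 4.56). Spike-in transcripts are labelled along with the sample, and the log2 signal at their 5′ end minus that at their 3′ end gives a gap for each array. On contralateral arrays this gap was flat, -1.01 to -0.81, in 5 rats (1, 5, 9, 10 and 11) and steep, -1.81 to -1.46, in 6 rats (2, 3, 4, 6, 7 and 8). MRT and untreated rats occurred in both sets, and on tumor arrays the gap was -1.52 to -0.94 in the flat set and -2.92 to -1.56 in the steep set. The tumor array of MRT rat 7 stood apart for these genes. It was the lowest of the 6 MRT tumor arrays for 15 of the 22 probesets, against 22.5% of all probesets. It was the highest for 0 of the 22, against 31.3% of all probesets.

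In tumor, Cars and Yars rose after MRT. With limma and Benjamini-Hochberg adjustment over all 31042 probesets, 3 of the 22 probesets rose and 0 fell, where 0.593% of all probesets rose and 0.325% fell. The 3 were 2 probesets of Cars, the cysteinyl-tRNA synthetase, and the probeset of Yars, the tyrosyl-tRNA synthetase. Of the 22, 21 had a log2 fold change above 0, against 50% of all probesets, and 9 were higher at an unadjusted p under 0.05, against 4.2%. The median log2 fold change was 0.43 over the 22 probesets and 0.00 over all probesets. In 4 of the 22 every MRT tumor array lay above every untreated one, which held for 0.989% of all probesets. Because the genes were chosen with earlier results of these data known, these shares are a description and no separate test. Some of the 22 probesets also read the same gene. Of the 6 proliferation markers, 2 fell in MRT tumors, with summed signals of 5762 to 13224 in MRT tumors and 8557 to 22899 in untreated tumors, and of the 8 neuron markers 0 changed. Of the 6 T cell and neutrophil markers measured, S100a8 and S100a9 rose, with summed signals of 1119 to 2929 in MRT tumors and 432 to 1241 in untreated tumors. Of the 6 endothelium markers Cldn5 and Tek fell (sums of 2397 to 4213 in MRT tumors and 4107 to 5261 in untreated tumors), and of the 8 microglia and macrophage markers Cd14 rose and P2ry12 fell (5253 to 9553 and 4639 to 13847). Of the 6 astrocyte and 6 oligodendrocyte markers 0 changed. The part of these cells in the synthetase values was not tested.

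Yars 1372009_at had signals from 3460 (rat 7) to 4540 (rat 6) in MRT tumors, with a median of 3705. In untreated tumors it had 2112, 2678, 2886, 2394 and 2254 in rats 1 to 5. All 6 MRT tumors lay above all 5 untreated ones. The log2 signal averaged 11.92 ± 0.15 in MRT tumors and 11.26 ± 0.18 in untreated tumors (SD), a log2 fold change of 0.66 ± 0.11 (SE, adjusted p = 0.0133), or 1.58-fold. In human cells, fragments of secreted Yars are known to act as cytokines besides its role in translation.

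Cars 1376754_at had signals from 665 (rat 11) to 886 (rat 6) in MRT tumors, with a median of 836. In untreated tumors it had 468, 558, 514, 526 and 433 in rats 1 to 5. The groups did not overlap, and rats 7 and 11 were the lower pair among the MRT tumors. The log2 fold change was 0.66 ± 0.11 (SE, adjusted p = 0.0138).

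Cars 1374034_at, the brightest of the 5 Cars probesets, had signals from 1264 (rat 9) to 1892 (rat 8) in MRT tumors, with a median of 1755, and 922, 1116, 1131, 1064 and 794 in untreated rats 1 to 5. The groups did not overlap. Its log2 fold change of 0.70 ± 0.14 (SE) was 1.62-fold, with an adjusted p of 0.0423. The probesets of Cars did not all read alike. Cars 1391572_at had 425 (rat 7) to 1127 (rat 10) in MRT tumors against 289 to 504 in untreated tumors, a log2 fold change of 1.01 ± 0.23 that missed the threshold (adjusted p = 0.0836) and whose groups overlapped through rat 7. Cars 1394970_at changed by 0.24 ± 0.12 (adjusted p = 0.668). Cars 1385698_at, below a signal of 58 on all 22 arrays, had -0.02 ± 0.09.

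When each rat was left out in turn, Yars (between an adjusted p of 0.0116, with rat 7 omitted, and 0.0491, with rat 4 omitted) and Cars 1376754_at (between 0.00835, with rat 7 omitted, and 0.0409, with rat 6 omitted) passed in all 11 fits. Cars 1374034_at passed in the fits without MRT rat 9 and without MRT rat 11 and missed in the other 9, with adjusted p from 0.0553 without rat 7 to 0.114 without rat 6. Cars 1391572_at passed without untreated rat 5 (adjusted p = 0.0404) and without rat 7 (0.0175).

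**Figure D1:**
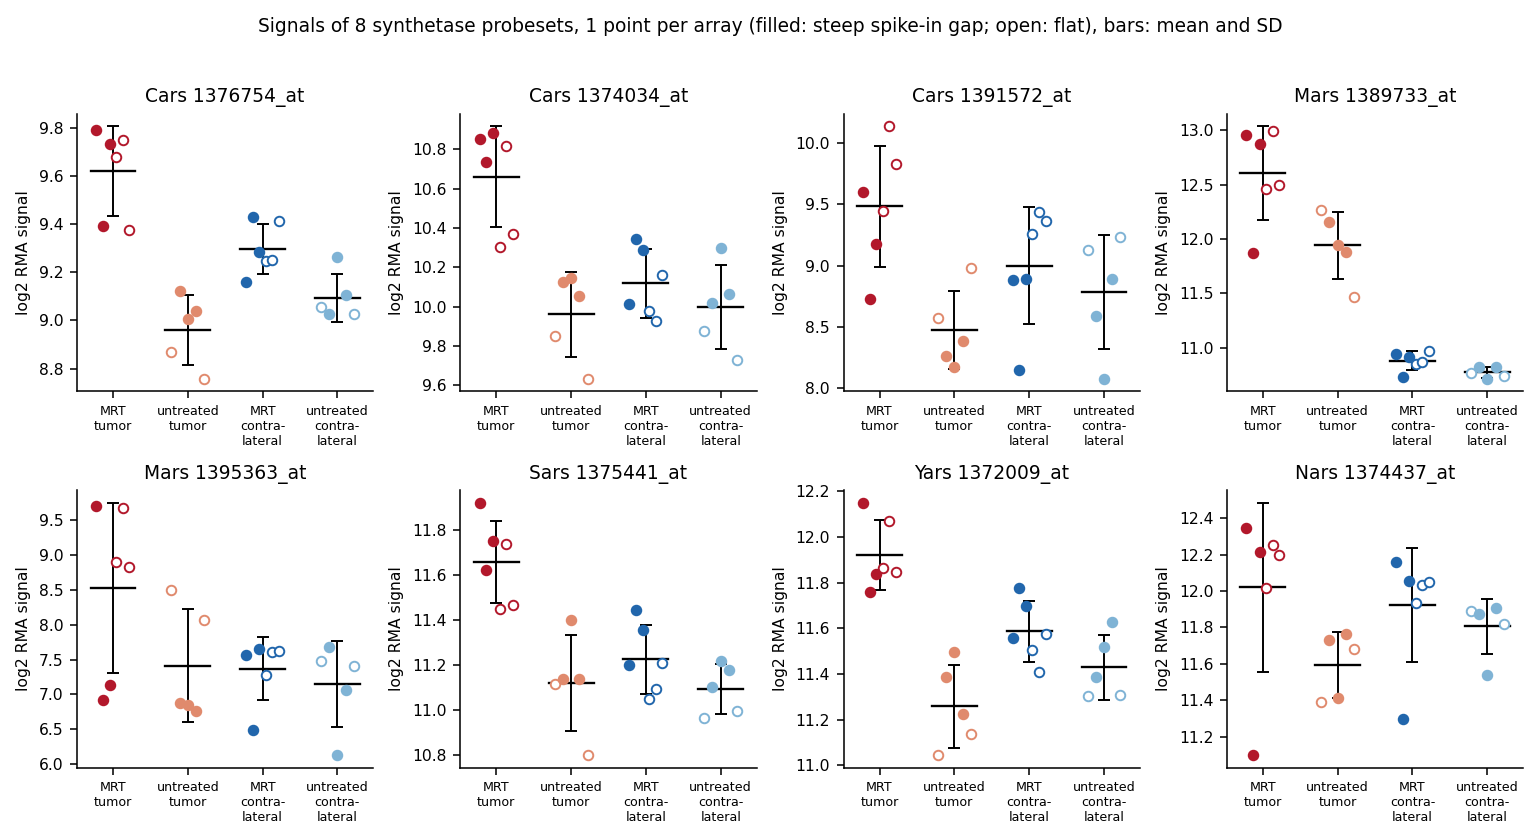
Log2 RMA signal (y axis) of 8 synthetase probesets in MRT tumor (n = 6), untreated tumor (n = 5), MRT contralateral brain (n = 6) and untreated contralateral brain (n = 5), 1 point per array, filled for rats with a steep and open for rats with a flat spike-in gap, with the mean and SD in black. MRT tumors lay above all untreated tumors for Cars 1376754_at, Cars 1374034_at, Yars and Sars, while for Nars the array of rat 7 lay far below the other MRT tumors.

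Mars is the methionyl-tRNA synthetase, which also loads the initiator tRNA. Mars 1389733_at had tumor signals of 7955, 3733, 7515, 5615, 8134 and 5761 in MRT rats 6 to 11, and 4917, 4557, 3931, 3769 and 2831 in untreated rats 1 to 5. Of the MRT tumors, 5 lay above all untreated ones and rat 7 lay below 4 of the 5. The log2 fold change was 0.67 ± 0.21 (SE), or 1.59-fold, and missed the threshold with an adjusted p of 0.279. Without rat 7 it was 0.81 ± 0.17, with an adjusted p of 0.0405, and it missed the threshold in the other 10 fits that left out a rat.

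Mars 1395363_at, a dimmer probeset, had tumor signals of 833, 121, 141, 476, 814 and 454 in MRT rats 6 to 11, and 362, 118, 115, 109 and 267 in untreated rats 1 to 5. The groups overlapped widely. The log2 fold change was 1.11 ± 0.57 (SE, adjusted p = 0.679), and without rat 7 the adjusted p was 0.263. In RefSeq the gene model of Mars1 overlaps that of its neighbour Ddit3 by 62 bases. In tumor the transcript of Ddit3, which encodes the stress transcription factor CHOP, changed by 0.90 ± 0.22 on the log2 scale (adjusted p = 0.0976).

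None of the other members passed in tumor. Sars 1375441_at had signals from 2802 (rat 9) to 3880 (rat 6) in MRT tumors and from 1784 (rat 5) to 2705 (rat 3) in untreated tumors. Its groups did not overlap, and its log2 fold change of 0.54 ± 0.12 just missed the threshold (adjusted p = 0.0694). The dimmer Sars 1391349_at had 0.17 ± 0.14 (adjusted p = 0.902), and its groups overlapped. Wars 1388574_at changed by 0.30 ± 0.11 on the log2 scale (adjusted p = 0.404) and Wars 1395124_at by 0.43 ± 0.21 (adjusted p = 0.634). Gars 1388715_at, whose enzyme also serves mitochondria, had 0.37 ± 0.14 (adjusted p = 0.427). The dimmer Gars 1395730_at had the largest log2 fold change of the 22 probesets, 1.21 ± 0.52 (adjusted p = 0.543), with 73 (rat 7) to 591 (rat 6) in MRT tumors and 72 (rat 3) to 297 (rat 5) in untreated tumors, and its groups overlapped. Tars 1372145_at had 0.43 ± 0.22 (adjusted p = 0.671).

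Nars 1374437_at had 0.43 ± 0.20 (adjusted p = 0.629), with a tumor signal of 2193 in MRT rat 7 against 4141 to 5205 in the other 5 MRT rats and 2682 to 3472 in untreated rats. Without rat 7 Nars rose by 0.61 ± 0.10 (adjusted p = 0.0176). Aars 1388394_at, the alanyl enzyme, which removes wrongly loaded serine, had the smallest change among the brightest probesets of the 10 genes, 0.27 ± 0.14 (adjusted p = 0.721). The 4 Eprs probesets ranged from 0.08 to 1.08, with adjusted p of 0.903 to 0.963.

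**Figure D2:**
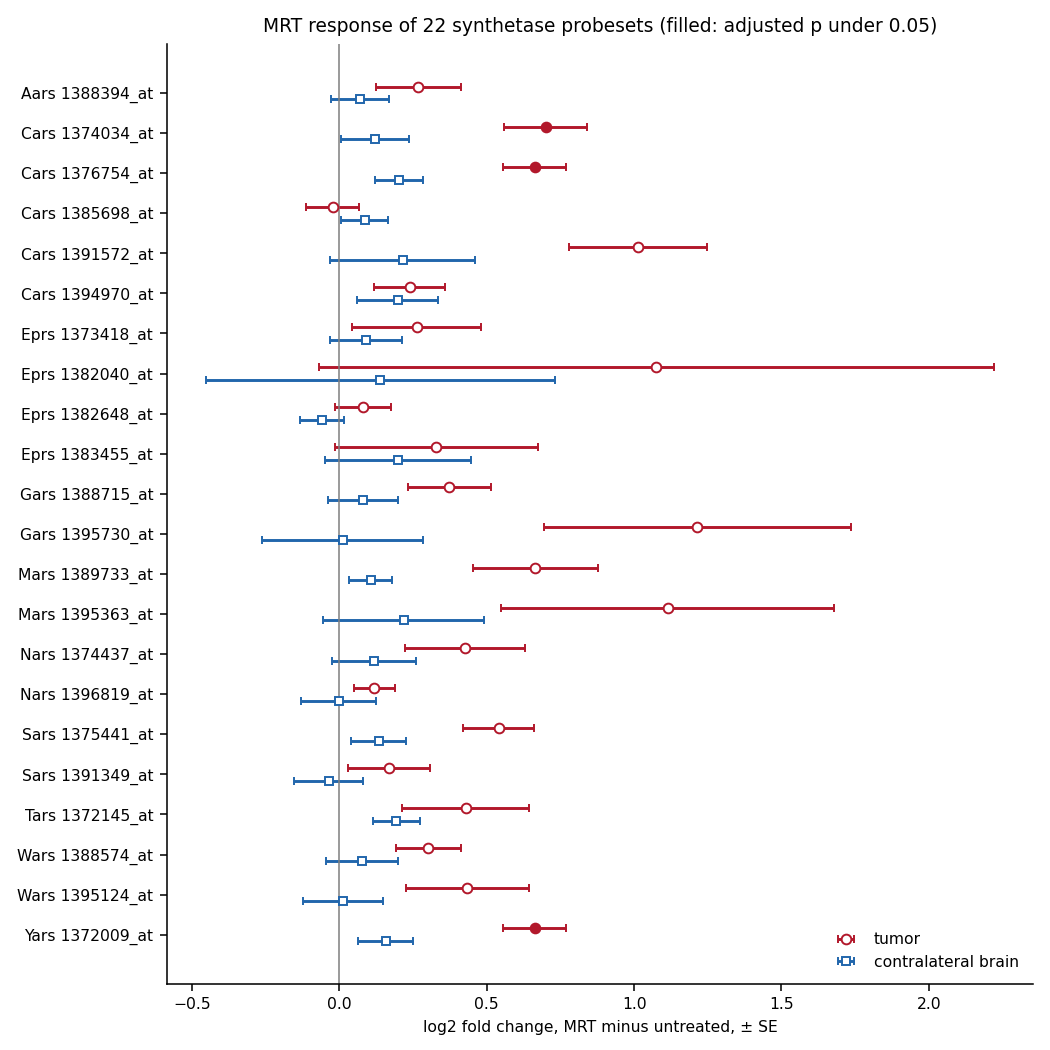
Log2 fold change, MRT minus untreated (x axis), with its standard error for all 22 synthetase probesets (y axis), in tumor (circles, 6 MRT and 5 untreated arrays) and contralateral brain (squares, 6 MRT and 5 untreated arrays). Filled symbols passed an adjusted p of 0.05, which 3 tumor values did, and 21 tumor and 19 contralateral values lay above 0.

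Leaving out rat 7 raised the tumor count to 5 probesets of 22, all higher, where 1.54% of all probesets were called in either direction, against 0.918% in the full set: Cars 1376754_at, Cars 1391572_at, Mars 1389733_at, Nars 1374437_at and Yars. Of these, 2 were among the 3 of the full set, since Cars 1374034_at then had an adjusted p of 0.0553. The median log2 fold change of the 22 was 0.59 without rat 7. Rat 7 was singled out from these same signals, so the count and median without it are a description and no separate test. Within the flat group of rats (3 MRT and 2 untreated tumors) the median was 0.53 and within the steep group (3 and 3) it was 0.34, with 21 and 20 of 22 values above 0. None of the 22 passed in either smaller fit, where 0 and 84 of all probesets did and 12 and 5 of the 22 had an unadjusted p under 0.05. Over all probesets the median log2 fold change was -0.01 in the flat and 0.01 in the steep group. The shares of all probesets above 0 or at that p in these fits are not given, so these counts are a description. SAM was the test of the study's methods. In the SAM run here, 5 of 22 were called higher in tumor, the 3 above with Cars 1391572_at and Sars 1375441_at. They were among 661 probesets called (2.13%). Neither Mars probeset was called in that run. The paper, however, lists Mars among the genes that changed significantly in tumor. It also reports a difference in Mars between treated and untreated tumors by quantitative RT-PCR, which included further tumors. Why Mars was not called here was not tested.

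In contralateral brain, no synthetase probeset passed the test after MRT. By limma, 0 of 22 rose and 0 fell, where 2.86% of all probesets rose and 1.24% fell, and SAM also called 0. No probeset had every MRT array above every untreated one, which held for 2.51% of all probesets. Of the 22, 2 were higher at an unadjusted p under 0.05, Cars 1376754_at and Tars 1372145_at, against 6.56% of all probesets. These counts were near the shares of all probesets and are not read as particular to the synthetases. The log2 fold changes ran from -0.06 to 0.22 with a median of 0.11, against -0.02 over all probesets, and 19 of 22 were above 0, against 45.2%. The median stayed between 0.09 and 0.13 when any rat was left out.

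For Yars the contralateral signals ran from 2718 (rat 10) to 3506 (rat 7) after MRT and from 2528 (rat 1) to 3168 (rat 4) without treatment, and the groups overlapped (log2 fold change 0.16 ± 0.09, adjusted p = 0.579). Cars 1376754_at had 572 to 689 after MRT and 521 to 614 without treatment (0.20 ± 0.08, adjusted p = 0.271), and Cars 1374034_at had 972 to 1302 and 849 to 1258 (0.12 ± 0.12, adjusted p = 0.822). Mars 1389733_at varied little in brain: it had 1966, 1693, 1925, 1850, 1869 and 2009 in MRT rats 6 to 11, and 1744, 1810, 1680, 1809 and 1706 in untreated rats 1 to 5. Its log2 fold change was 0.11 ± 0.07 (adjusted p = 0.669). Mars 1395363_at had 90 (rat 7) to 201 (rat 8) after MRT and 70 (rat 3) to 206 (rat 2) without treatment (0.22 ± 0.27, adjusted p = 0.882). Tars 1372145_at, the threonyl enzyme, had 956 to 1139 after MRT and 879 to 1044 without treatment (0.19 ± 0.08, adjusted p = 0.299).

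Whether the response differed between the tissues was tested as tumor response minus contralateral response in a fit of all 22 arrays. Of the 22 probesets, 0 passed, where 0.467% of all probesets did. At an unadjusted p under 0.05 the tumor response was the larger in 6 of the 22, against 1.35% of all probesets: 3 probesets of Cars, Yars, Sars 1375441_at and Mars 1389733_at. The difference was 0.51 ± 0.14 for Yars (adjusted p = 0.184), 0.46 ± 0.13 for Cars 1376754_at (adjusted p = 0.217) and 0.56 ± 0.23 for Mars 1389733_at (adjusted p = 0.98). The difference was above 0 in 21 of the 22, against 52.5% of all probesets, with a median of 0.30. These shares too are a description, for genes chosen with earlier results of these data known. With the rat as a fixed block, since each rat gave both tissues, 1 of the 22 passed, Cars 1391572_at (0.80 ± 0.15, adjusted p = 0.0242), and with the rat as a random block 0 did. The shares of all probesets called in the block fits are not given here. These counts are therefore not read as particular to the synthetases.

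The level in tumor against contralateral brain differed from gene to gene. In untreated rats, 4 probesets were higher in untreated tumor than in untreated contralateral brain and 2 were lower, where 22.6% of all probesets were higher and 32.2% lower. Mars 1389733_at was 1.17 ± 0.17 higher on the log2 scale (adjusted p = 6.27e-06), or 2.25-fold, and Tars 1372145_at was 1.01 ± 0.17 higher (adjusted p = 5.13e-05). Eprs 1373418_at was 0.72 ± 0.19 higher (adjusted p = 0.003) and Wars 1388574_at 0.40 ± 0.12 higher (adjusted p = 0.00876). All 5 untreated tumors exceeded their own contralateral sample in these 4 probesets.

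The 2 lower probesets were dim ones. Gars 1395730_at had 122, 95, 72, 125 and 297 in untreated tumors of rats 1 to 5, against 409, 478, 208, 405 and 384 in their contralateral brains (log2 difference -1.53 ± 0.46, adjusted p = 0.00748), while the brighter Gars 1388715_at differed by -0.06 ± 0.14. Eprs 1382648_at lay below a signal of 58 on all arrays and differed by -0.21 ± 0.08 (adjusted p = 0.0388), a call that was lost without any of rats 1 to 4 (adjusted p of up to 0.149 without rat 2) and when all signals below 58 were set to 58. Neither Yars (-0.17 ± 0.10, adjusted p = 0.16) nor the 5 Cars probesets passed in untreated rats.

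In MRT rats, 11 of the 22 probesets were higher in MRT tumor than in MRT contralateral brain and 0 were lower, where 22.8% of all probesets were higher and 31.4% lower. The 11 covered 8 genes: all but Gars and Nars. Mars 1389733_at was 1.73 ± 0.15 higher (adjusted p = 8.41e-09), or 3.31-fold, with tumor signals of 3733 to 8134 against 1693 to 2009. Tars was 1.24 ± 0.16 higher, Eprs 1373418_at 0.90 ± 0.17, Wars 1388574_at 0.63 ± 0.11, Cars 1374034_at 0.54 ± 0.12, Sars 1375441_at 0.43 ± 0.10, Aars 0.37 ± 0.12 and Yars 0.33 ± 0.09. The tumor exceeded the contralateral sample in 6 of 6 MRT rats for Mars 1389733_at, Tars, Wars 1388574_at, Cars 1374034_at, Sars 1375441_at, Eprs 1373418_at and Aars, in 5 of 6 for Yars, Eprs 1383455_at and Mars 1395363_at, and in 4 of 6 for Cars 1376754_at. The calls of Aars, Eprs 1383455_at and Mars 1395363_at did not hold in every fit that left out a rat. Aars missed the threshold without rat 6 or rat 10 (adjusted p of 0.0553 and 0.0548), Eprs 1383455_at without any of rats 6, 8, 9, 10 and 11 (up to 0.0842 without rat 8) and Mars 1395363_at without any of rats 6, 9, 10 and 11 (up to 0.102 without rat 6). A count of 11 in MRT rats beside 6 in untreated rats does not test a difference between them, and the test of that difference is the response difference above. The tissues also differ in their cells: summed over the 8 neuron markers the signal was 38268 to 58528 in MRT tumors and 34145 to 60471 in untreated tumors, against 78817 to 85757 in MRT contralateral brain and 74959 to 90459 in untreated contralateral brain. Over the 6 proliferation markers it was 5762 to 13224 in MRT tumors and 8557 to 22899 in untreated tumors, against 605 to 746 and 701 to 882 in the contralateral groups. Their part in the synthetase values was not tested.

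**Figure D3:**
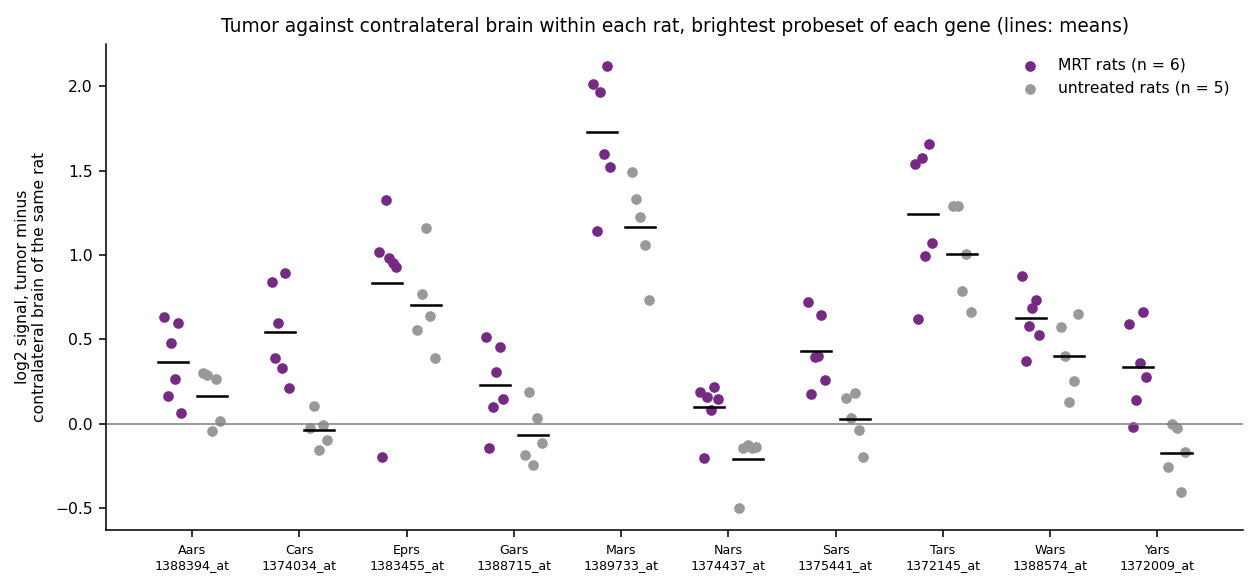
Log2 signal of the tumor minus that of the contralateral brain of the same rat (y axis) for the brightest probeset of each of the 10 synthetases (x axis), in 6 MRT rats and 5 untreated rats, with lines at the means. Mars and Tars lay above 0 in all 11 rats, and for Yars 5 of 6 MRT rats and 0 of 5 untreated rats lay above 0.

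A few probesets of these genes differed between rats with a flat and rats with a steep spike-in gap. Eprs 1382040_at, 1 of 4 probesets of the glutamyl-prolyl enzyme, had tumor signals of 367, 32, 67, 601, 814 and 691 in MRT rats 6 to 11 and 837, 25, 42, 49 and 586 in untreated rats 1 to 5. All 5 flat rats had 586 or more, and the steep rats had 67 or less apart from MRT rat 6. The sets were cut on contralateral arrays, and the tumor array of rat 6 had a gap of -1.56, near that of flat rat 1 (-1.52). Flat rats exceeded steep rats by 3.50 ± 0.54 on the log2 scale in tumor (limma, adjusted p = 0.00471) and by 1.89 ± 0.28 in contralateral brain (adjusted p = 0.00131), in fits that also held the treatment. This term passed for 1 of the 22 probesets in tumor, against 4.85% of all probesets, and for 4 of 22 in contralateral brain, against 4.83%. The other 3 in contralateral brain were Eprs 1383455_at (0.67 ± 0.17), Cars 1391572_at (0.69 ± 0.16) and Cars 1394970_at (0.42 ± 0.08), all higher in flat rats.

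Between rats of 1 group the SD of the log2 signal in tumor was 2.15 for Eprs 1382040_at, 1.06 for Mars 1395363_at and 0.97 for Gars 1395730_at, against 0.07 to 0.64 for the other 19 probesets. With the spike-in groups as a block, 5 of the 22 probesets rose after MRT in tumor, the 3 above with Cars 1391572_at (0.95 ± 0.17, adjusted p = 0.0227) and Sars 1375441_at, where 1.06% of all probesets were called in either direction. In contralateral brain 0 of the 22 passed, against 4.93% of all probesets.

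**Figure D4:**
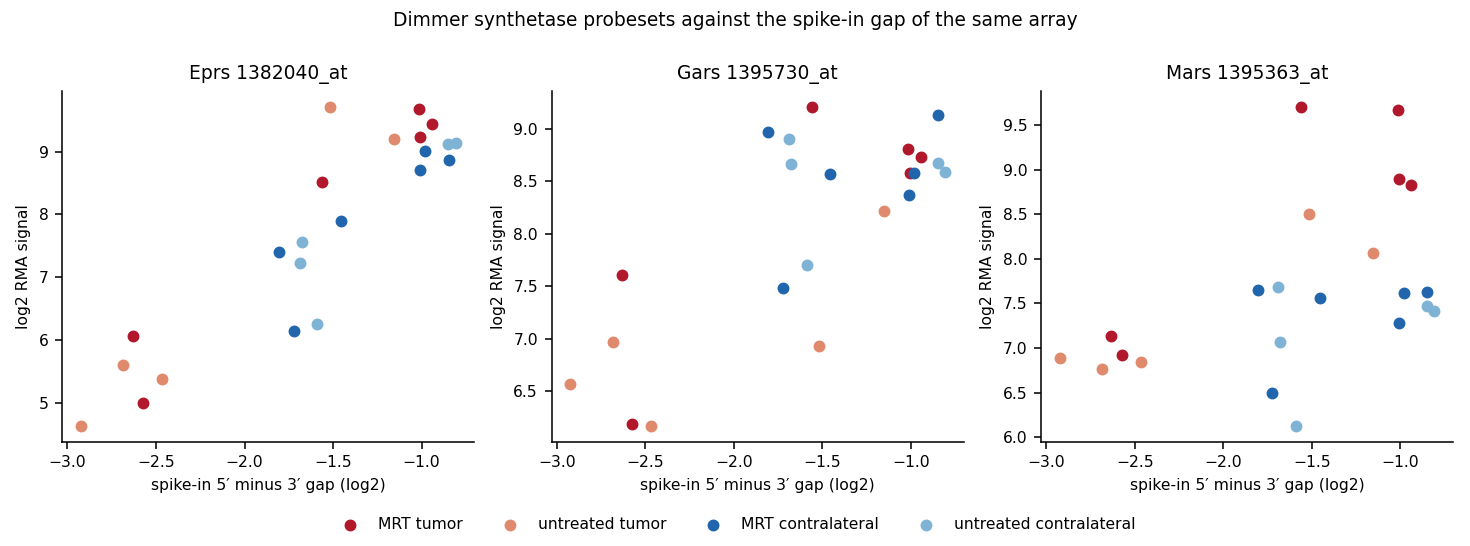
Log2 RMA signal (y axis) of 3 dimmer synthetase probesets against the log2 spike-in gap of the same array, 5′ minus 3′ (x axis), 1 point per array, in MRT tumor, untreated tumor, MRT contralateral brain and untreated contralateral brain. Eprs 1382040_at had a signal of at most 67 on the 5 tumor arrays with the steepest gaps, and of 416 or more on every array of the flat rats.

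The synthetases varied together between tumors of 1 group. Over the brightest probeset of each gene, deviations from the group mean correlated with a median Pearson r of 0.62 over the 45 pairs of genes in tumor (11 arrays, 43 pairs above 0) and 0.43 in contralateral brain (30 pairs above 0). These correlations are a description over arrays that share their rat, labelling and normalization. They include rat 7, and no such median over pairs of other genes is given. In contralateral brain Eprs 1383455_at ran against the average of the other members (r = -0.60). Tars (r = 0.96), Wars (0.93) and Mars (0.90) followed the average of the other members most closely in tumor, and Cars 1374034_at least (0.40). The average deviation in tumor was lowest in MRT rat 7 (-0.51) and highest in MRT rat 6 (0.26). In contralateral brain it ran only from -0.09 (MRT rat 7) to 0.13 (MRT rat 8).

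The probesets most like this average in tumor, by Pearson r over 11 arrays, belonged to Ppwd1 (r = 0.98), Faf1 (0.98), Prkd3, Fam118a, Rbpj and Cops2 (0.97 each), and without rat 7 their r was 0.93 to 0.96. None of these 6 passed the test for MRT in tumor, with log2 fold changes from -0.26 to 0.42. In contralateral brain they were Pdcd11 and Psmc5 (0.96 each), and Dkk3, Slamf9, Madd and Prpf4 (0.94 each), and without rat 8 their r was 0.92 to 0.95. The median r of the 9 other cytosolic synthetases with this average was 0.82 in tumor and 0.29 in contralateral brain. Over all probesets with 1 gene symbol outside the members, bright or dim, it was -0.03 and 0.07.

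The other genes of the pathway were read from lists, each gene by its brightest probeset. Of 9 other cytosolic synthetases measured, such as Iars1 for isoleucine and Lars1 for leucine, which sit with Mars and Eprs in the multisynthetase complex, 0 passed the test in tumor and 0 in contralateral brain. In tumor the median log2 fold change was 0.43 over the 10 members, each by its brightest probeset, and 0.20 over these 9, and in contralateral brain it was 0.12 over the 10 and -0.04 over the 9. Because the 10 were chosen with earlier results of these data known, this contrast is a description. Iars1 had the largest value in tumor, 0.49 ± 0.18 (adjusted p = 0.418). Of 14 mitochondrial synthetases, encoded by separate genes, 0 passed in either tissue, with medians of -0.07 in tumor and -0.07 in contralateral brain. The 2 scaffold proteins of the complex measured, Aimp1 and Eef1e1, did not pass either.

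Among 17 genes listed with the ATF4 response, 6 rose in tumor and 7 in contralateral brain and 0 fell, with medians of 0.67 and 0.34. Whether ATF4 drove these changes was not tested. In tumor Sesn2, an inhibitor of mTORC1 signaling, rose by 1.63 ± 0.12 (adjusted p = 7.53e-05), Ppp1r15a, which directs dephosphorylation of eIF2, by 1.35 ± 0.10 (adjusted p = 7.53e-05) and Trib3, a pseudokinase that restrains ATF4, by 1.64 ± 0.18 (adjusted p = 0.00129). The Atf4 transcript itself rose by 0.61 ± 0.09 in tumor (adjusted p = 0.00799) and by 0.34 ± 0.08 in contralateral brain (adjusted p = 0.0257). In contralateral brain Atf3, a stress transcription factor, rose by 4.08 ± 0.21 and Sesn2 by 1.66 ± 0.11. The response difference passed for 4 of the 17: it was positive for Trib3 (1.23 ± 0.24), Chac1 (1.00 ± 0.21) and Nupr1 (1.59 ± 0.34), and negative for Atf3 (-2.33 ± 0.46). Nupr1 itself passed in neither tissue, with 1.10 ± 0.28 in tumor (adjusted p = 0.125) and -0.49 ± 0.17 in contralateral brain (adjusted p = 0.182).

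Of 12 genes of amino acid synthesis, 1 rose in tumor (Mthfd2, a mitochondrial enzyme of folate metabolism, 1.35 ± 0.24) and 2 in contralateral brain (Mthfd2 and Cth). Asns, the asparagine synthetase, had 0.92 ± 0.23 in tumor (adjusted p = 0.129) and -0.03 ± 0.08 in contralateral brain (adjusted p = 0.954). Of 9 transporters, 2 rose in tumor, Slc3a2 (0.52 ± 0.10) and Slc7a1 (0.70 ± 0.14), and 1 in contralateral brain, Slc1a5. Of 14 translation initiation and elongation factors, 1 rose in tumor, the inhibitor of cap-dependent translation Eif4ebp1 (0.68 ± 0.13), and 0 in contralateral brain.

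Wars, the tryptophanyl enzyme, is induced by interferon-gamma in human cells, so it was set beside 15 interferon-gamma response genes. In contralateral brain the 2 Wars probesets had log2 fold changes of 0.08 ± 0.12 (adjusted p = 0.917) and 0.01 ± 0.14 (adjusted p = 0.991). For Wars 1388574_at the signals were 2241 to 3195 after MRT and 1970 to 2902 without treatment, and the groups overlapped. Of the 15 response genes 13 rose there, with a median of 2.07 and values such as 6.31 ± 0.16 for Cxcl10 and 3.20 ± 0.19 for Irf1. In tumor Wars 1388574_at had 0.30 ± 0.11 (adjusted p = 0.404), and 5 of the 15 rose, with a median of 0.64.

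**Figure D5:**
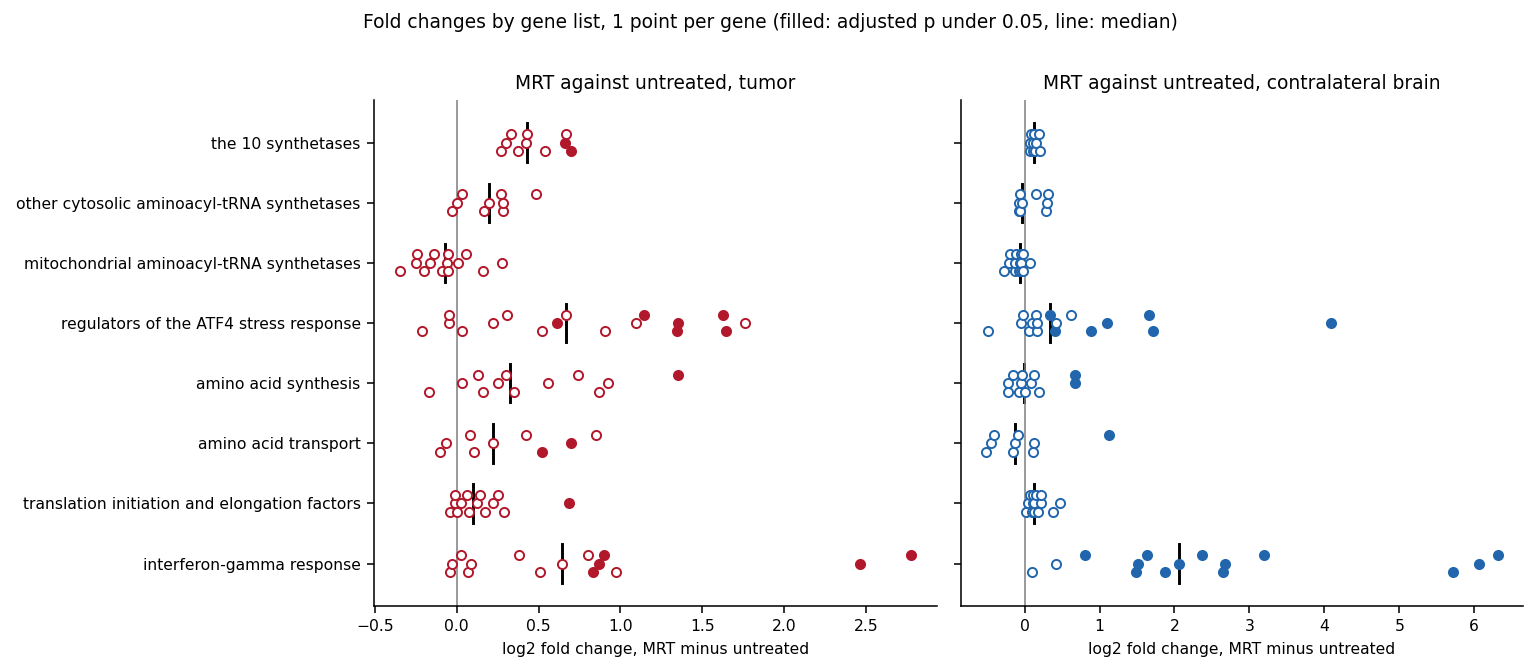
Log2 fold change, MRT minus untreated (x axis), for each gene of 8 lists (y axis) in tumor and in contralateral brain, filled where the adjusted p was under 0.05, with a line at the median of each list. The 10 synthetases had medians of 0.43 in tumor and 0.12 in contralateral brain, and the 15 interferon-gamma response genes 0.64 and 2.07.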

How the data were processed

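The authors extracted RNA from tumor and contralateral punches, hybridised 1 array per sample and normalized the arrays by RMA in Affymetrix Expression Console. The deposited values are intensities on the linear scale, in whole numbers from 10 to 36564, and all 22 columns were identical in the 2 deposited tables. Columns were tied to rats through sample titles.

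Here, 57 control probesets of 31099 were left out, signals were turned to log2, and the other 31042 were fitted with limma 3.58.1 (lmFit, eBayes, R 4.3.3), the 2 groups of a tissue for each MRT response and all 4 groups for the other comparisons. P-values were adjusted by Benjamini-Hochberg over all probesets, at an FDR of 5%. No detection calls were used. Of the probesets, 19546 had 1 gene symbol, 372 several and 11124 none, and symbols were updated through RefSeq. Levels were not compared between probesets. RMA compresses fold changes of dim probesets.

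Numbers in the titles give the rat, so both tissues of a rat form a pair. Deviations from group means of the 2 samples of a rat correlated with a median r of 0.312 (0.097 to 0.649, n = 11), against 0.15 between rats of the same spike-in set and -0.17 between sets. Samples came from separate rats, and their number limits the precision: there were 5 or 6 arrays per group. The fits were checked on simulated data with known changes before use. Changes of 1.5-fold were recovered in 38.8% of cases in tumor, 50.7% in contralateral brain and 19.4% in the response difference. For 2-fold changes it was 73.1%, 86.6% and 77.6%, so a missed threshold does not show that a small change was absent.

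Alternatives were SAM (100 permutations, median FDR 3.98% in tumor), an FDR of 1%, all 4 groups in 1 fit, a signal floor of 58, a filter on low signals, cyclic loess, array weights, trend and robust variances, the rat or spike-in set as a block, fits within each set, 1 probeset per gene, and each rat left out. Signals were given by array, or as lowest, median and highest for groups of 6, for probesets past a test of MRT and for Mars, and at most 4 genes past the test were named per list. Asns, Iars1, Lars1, Ddit3 and the Nars, Sars, Gars and Eprs values by array were picked after their values were seen. The members and lists were chosen with earlier results of these data known. Promoter windows came from RefSeq (GRCr8). Python 3.11.15 with pandas 2.3.3 and matplotlib 3.10.9 was used for tables and plots.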

Additional observations from a re-analysis of the deposited data

Results flagged for a closer look

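In 6 of 88 combinations of probeset and group, the lowest array stood apart from the rest of its group by more than Dixon's 95% limit, which chance exceeds in about 1 in 20 groups. The gap to the nearest array, as a share of the group's range, is given for each. Eprs 1383455_at in MRT tumors had a gap of 0.851, with rat 7 at a log2 signal of 9.95 and the next rat at 11.72. Nars 1374437_at was low in rat 7 in both tissues, with a gap of 0.735 in MRT tumor (11.10, next 12.02) and 0.739 in MRT contralateral brain (11.30, next 11.94). Mars 1395363_at had a gap of 0.677 in MRT contralateral brain, also through rat 7 (6.49, next 7.28). In untreated contralateral brain rat 3 was low for Nars 1374437_at, with a gap of 0.762 (11.54, next 11.82), and for Gars 1395730_at, with a gap of 0.737 (7.70, next 8.59). Rats 3 and 7 both belong to the set with a steep spike-in gap, and its part in these values was not tested.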

How the results depend on the processing

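Of the 22 probesets, 3 rose in tumor in the fit reported. This count was 6 with all 4 groups in 1 fit, 10 with array weights, 5 with the spike-in set as a block and 5 with SAM, each including those 3, where 1.97%, 5.68%, 1.06% and 2.13% of all probesets were called. It was 2 with the signal floor and 2 with trend and robust variances, which lost Cars 1374034_at (adjusted p of 0.0815 and 0.0532). It was 0 at an FDR of 1% and 0 within the flat and 0 within the steep set, where fewer rats were fitted, and 2 to 5 when a rat was left out. In contralateral brain it was 1 with array weights (Tars) and 0 without any single rat. The response difference had 5 calls with array weights, 1 with the rat as a fixed replicate block, 0 with the rat as a random one and 0 without any single rat. Untreated tumor differed from brain in 11 probesets with array weights, in 3 of 10 with 1 probeset per gene and in 5 to 8 without a rat, and MRT tumor in 8 to 12 without a rat. The pairing by rat applies to comparisons across tissues, where these 2 counts were 7 and 12 with the fixed replicate block and 8 and 12 with the random one. The counts for contralateral brain, the response difference and the tissue comparisons stand here without the share of all probesets called in the same fit. They are not read as particular to the synthetases. The causes of these changes were not tested. The median log2 fold change over the 22 stayed at 0.35 to 0.59 in tumor and 0.09 to 0.13 in contralateral brain without any single rat. No probeset past a test in the fits reported reversed its direction. Among the others signs did change: in tumor 21 of 22 were above 0, and 20 within the steep set, and in contralateral brain 19 were above 0, and 18 within the flat and 17 within the steep set.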
